A study of Homo sapiens with 2 samples.

Results

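The RNA-binding protein gene LIN28B and genes of the let-7 pathway were examined in BE(2)-C cells, a human neuroblastoma line that carries MYCN amplification, 48 hours after transfection with linc00467 siRNA or with control siRNA. The genes were taken from a list of 8, namely LIN28B, LIN28A, HMGA2, IGF2BP1, IGF2BP2, IGF2BP3, DICER1 and DROSHA, and a gene entered if the annotation of the array named a probe set for it. Of the 8 genes, 6 had such a probe set, 1 each, among 16098 named probe sets of 14884 genes and 53617 probe sets in all. DICER1 and DROSHA, the enzymes that cut microRNA precursors in the cytoplasm and in the nucleus, had no named probe set and were not analysed here. The study used linc00467 siRNA-1 to lower a long noncoding RNA and asked which genes then changed, with total RNA of 1 culture per condition hybridized to 1 Affymetrix HuGene-2_0-st array each. Neither sample had any other treatment in the labels. A description of the linc00467 siRNA sample names its target as lncMycN, whereas its other labels name linc00467.

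LIN28B and its paralogue LIN28A encode proteins that bind the precursors of let-7 microRNAs and block their maturation, in part by recruiting enzymes that add uridines to the precursor. Mature let-7 guides Argonaute complexes to mRNAs that carry matches to its seed, among them HMGA2, the IGF2BP mRNAs, LIN28B itself and several cell cycle genes, so that LIN28B and let-7 repress each other. In neuroblastoma LIN28B is known as an oncogene that is highly expressed in aggressive tumours and that raises N-Myc protein through loss of let-7.

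The let-7 family is defined by its seed, and the mature sequences are therefore shown first, as given by RefSeq for the GRCh38.p14 build. The seed at bases 2 to 8 is in capitals. Of 2545 mature sequences in that table, those of 14 genes carried this seed. The family list used here held 12 of the 14, all of which were matched by symbol, with 9 distinct mature sequences.
let-7a-5p: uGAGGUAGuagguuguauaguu
let-7b-5p: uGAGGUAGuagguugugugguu
let-7c-5p: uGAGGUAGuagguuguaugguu
let-7d-5p: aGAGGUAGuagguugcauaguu
let-7e-5p: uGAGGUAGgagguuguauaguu
let-7f-5p: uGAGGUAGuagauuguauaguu
let-7g-5p: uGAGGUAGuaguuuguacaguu
let-7i-5p: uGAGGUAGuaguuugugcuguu
miR-98-5p: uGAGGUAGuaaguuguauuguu

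LIN28 proteins contact the precursor rather than the mature strand, and their zinc knuckles bind the letters GGAG. The hairpins of the 3 let-7 genes with the largest negative differences (let-7c, let-7d and let-7f-2) and of let-7a-3, which lacks these letters, are given with the seed and each GGAG after the mature arm in capitals. The let-7c hairpin lies at chr21:16539828-16539911 on the plus strand within MIR99AHG. The let-7d hairpin lies at chr9:94178834-94178920 on the plus strand within MIRLET7A1HG and LINC02603. The let-7f-2 hairpin lies at chrX:53557192-53557274 on the minus strand within HUWE1, and the let-7a-3 hairpin at chr22:46112749-46112822 on the plus strand within MIRLET7BHG and LOC124905135.
let-7c: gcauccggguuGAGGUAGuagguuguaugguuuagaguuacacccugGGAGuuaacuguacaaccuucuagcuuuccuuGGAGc
let-7d: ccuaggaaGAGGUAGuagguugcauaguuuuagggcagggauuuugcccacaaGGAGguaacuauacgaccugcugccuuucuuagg
let-7f-2: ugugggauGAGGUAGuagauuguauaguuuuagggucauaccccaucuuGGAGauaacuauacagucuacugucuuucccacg
let-7a-3: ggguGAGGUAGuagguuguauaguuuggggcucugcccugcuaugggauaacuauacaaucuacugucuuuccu
GGAG was searched on the transcribed strand alone, since the hairpin is RNA, and was found in 9 of 12 let-7 hairpins. It was absent from those of let-7a-3, let-7b and miR-98. In let-7e the letters also occur in the mature strand, where they overlap the last base of the seed. In let-7c the second GGAG is among the last bases of the hairpin. Whether it is kept in the precursor that LIN28 proteins contact was not examined. Of 1090 hairpins between 72 and 119 bases long, the range of the let-7 hairpins, 43.0% held GGAG. A match is a description of the letters and not evidence of binding.

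All values below are log2 levels per probe set as the authors deposited them, and each difference is the level with linc00467 siRNA minus the level with control siRNA. With 1 array per condition there was no replicate, so no error and no test could be given, and culture, hybridization and siRNA cannot be told apart as sources of any difference. A gene is called higher or lower where the difference was at least 1.2 fold, and the share of all named probe sets past that fold is given as background. Probe sets bind their targets with unequal strength, so that levels were not ranked between genes. A level is placed only against the median of all named probe sets, 5.68. The targeted RNA, LINC00467, had a level of 5.67 with linc00467 siRNA and 6.55 with control siRNA, or 0.543 times the control signal. Of 9 adrenergic neuroblastoma markers 7 had named probe sets, 8 in all, and each was at or above the median level on both arrays, from TH to HAND2. Among these 8 probe sets 2, both of ISL1, were higher and 3, of GATA3, DBH and CHGA, were lower with linc00467 siRNA by the threshold given above, with a median difference of -0.19. Of all named probe sets not below the median level, 10.7% passed that threshold upward and 13.4% downward. Of markers of other cell types, PECAM1 and VWF (endothelium) had 3.44 and 4.62 on both arrays. SOX10 and S100B (Schwann cells) and CD68 (macrophages) were above the median level and within that threshold. No fibroblast marker had a named probe set. The part of these markers in the results below was not tested. Levels that were exactly equal on both arrays were found for 22.9% of named probe sets, so that a difference of 0 may stand for a small difference in signal. Such a level was at times shared by different genes, as 4.07 by LIN28A and EDARADD and 4.16 by MAPK4 and MIR125B2. An equal level may therefore not be particular to its gene, and why such levels recur was not tested.

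LIN28B was 1.70 fold higher with linc00467 siRNA than with control siRNA, and it was the only 1 of the 6 measured genes past 1.2 fold. Its probe set (17011255), for a gene on chromosome 6, had a level of 10.07 with linc00467 siRNA and 9.30 with control siRNA. This was a log2 difference of 0.77. Among all 16098 named probe sets 52, or 0.323%, had a difference at least as high, counting LIN28B. Over all 53617 probe sets, unnamed ones included, the share was 0.664%. Among the 8049 named probe sets not below the median level, 36 did, or 0.447%. As background, 8.5% of all named probe sets passed 1.2 fold upward and 9.78% downward. Among those not below the median level these shares were 10.7% and 13.4%. LIN28B did not reach the 1.8 fold at which the study set its own cut-off. LIN28A, the paralogue that marks pluripotent cells, had a level of 4.07 on both arrays, equal to the last digit deposited. Only 1 of the LIN28 genes was therefore above the median level of named probe sets on either array.

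**Figure D1:**
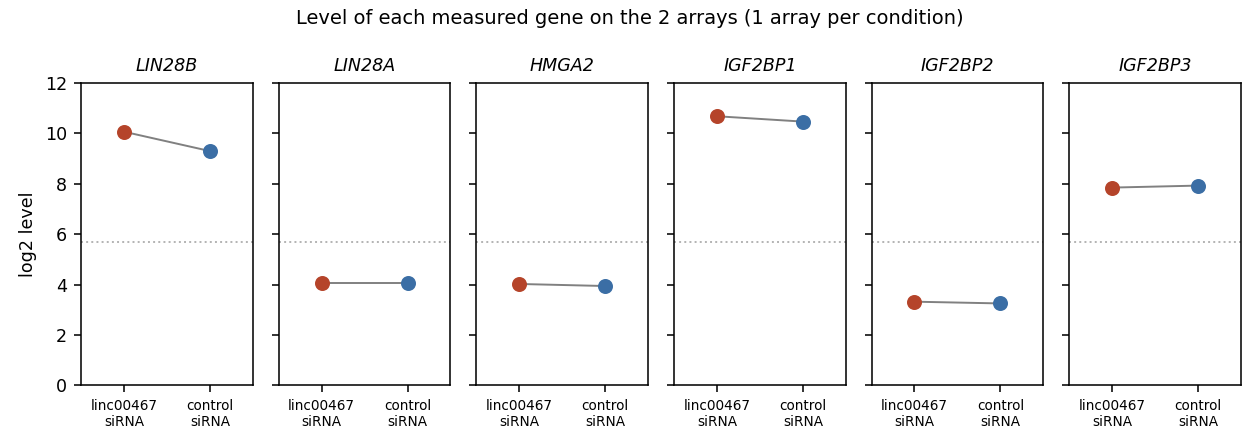
The log2 level of each of the 6 measured genes is shown for the linc00467 siRNA array (left point) and the control siRNA array (right point), with the median level of all named probe sets, 5.68, as a dotted line. LIN28B had 10.07 with linc00467 siRNA and 9.30 with control siRNA, while the points of the other 5 genes differed by at most 0.21.

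The 3 IGF2BP genes encode oncofetal proteins that bind and stabilise mRNAs, and all are let-7 targets. IGF2BP1, on chromosome 17, had a level of 10.68 with linc00467 siRNA and 10.47 with control siRNA, a log2 difference of 0.21, or 1.16 fold. It was the second of the 6 genes by size of difference, and 11.7% of named probe sets had a difference at least as high. IGF2BP3, on chromosome 7, had 7.85 with linc00467 siRNA and 7.93 with control siRNA, a log2 difference of -0.08. IGF2BP2, on chromosome 3, had 3.32 with linc00467 siRNA and 3.25 with control siRNA, a log2 difference of 0.07. Thus IGF2BP1 and IGF2BP3 were above the median level and IGF2BP2 was below it, near the 25th percentile of all probe sets, which was 3.12 on the linc00467 siRNA array and 3.13 on the control siRNA array. HMGA2, which encodes a chromatin architectural protein and is a classical let-7 target, had a level of 4.02 with linc00467 siRNA and 3.94 with control siRNA. Its log2 difference was 0.08, and 26.4% of named probe sets had a difference at least as high. The median difference of the 6 genes was 0.08, beside a median of 0.00 for all named probe sets. The middle of all differences, from the 25th to the 75th percentile, ran from -0.08 to 0.09, and LIN28A, HMGA2 and IGF2BP2 lay inside it.

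**Figure D2:**
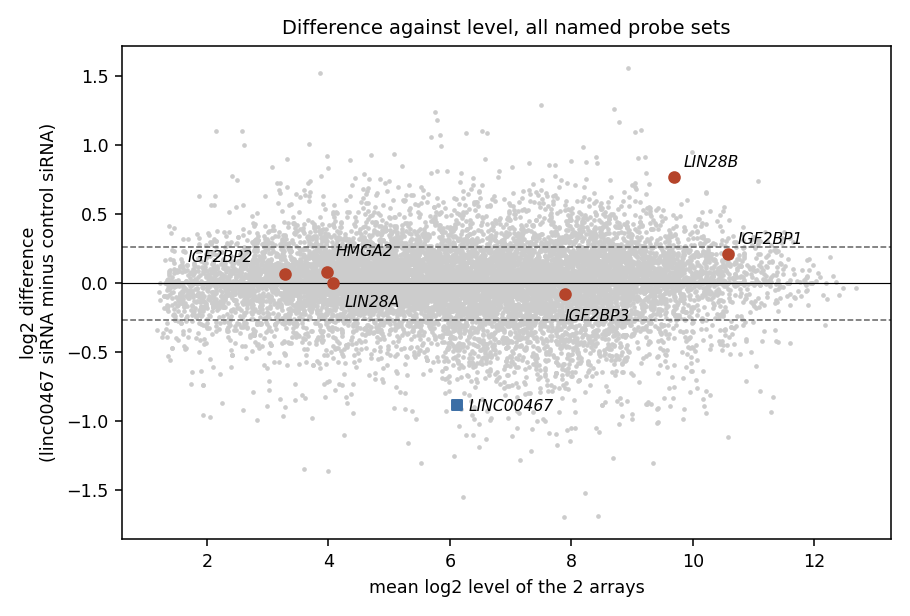
The log2 difference between linc00467 siRNA and control siRNA is plotted against the mean log2 level of the 2 arrays for all 16098 named probe sets (grey), the 6 measured genes (red circles) and the targeted LINC00467 (blue square), with dashed lines at 1.2 fold. LIN28B lies above the upper line at 0.77, LINC00467 lies below the lower line at -0.88, and the other 5 genes lie between the lines.

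The 3 named probe sets closest to LIN28B in their 2 levels belonged to IER3IP1, NAMPT and DUSP7, at Euclidean distances of 0.19, 0.22 and 0.22 on the log2 scale over the 2 arrays. Their log2 differences were 0.50, 0.57 and 0.47. Each was smaller than that of LIN28B, which says little, since only 52 named probe sets, counting LIN28B, had one at least as high. Likeness over 2 arrays is a description of these values only.

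None of the let-7 genes was higher by at least 1.2 fold, and 3 of the 11 microRNA genes with a named probe set were lower. MIRLET7C had a level of 3.47 with linc00467 siRNA and 3.79 with control siRNA, a log2 difference of -0.32. MIRLET7D had 4.97 with linc00467 siRNA and 5.27 with control siRNA, a difference of -0.30. MIRLET7F2 had 1.75 with linc00467 siRNA and 2.04 with control siRNA, also a difference of -0.30, at a level below the 25th percentile of all probe sets. A share of 3 in 11 was 27.3%, beside 15.8% of all 1236 named probe sets of microRNA genes that were lower and 9.14% that were higher. The median difference of the 11 genes was -0.03, against 0.00 for all named microRNA probe sets.
The other 8 measured let-7 genes were within 1.2 fold, and MIRLET7B had no named probe set. MIRLET7A3 was the only let-7 gene above the median level, with 6.84 with linc00467 siRNA and 6.93 with control siRNA. MIRLET7E, MIRLET7G and MIR98 had equal values on both arrays, at 4.88, 5.14 and 5.52. The level of MIRLET7E was shared by MIR4422 and that of MIRLET7G by LEPR, so that neither may be particular to its gene. MIRLET7I had 4.88 with linc00467 siRNA and 4.91 with control siRNA, a difference of -0.03. MIRLET7A2 had a difference of -0.23, and MIRLET7A1 and MIRLET7F1 had 0.08 and 0.16. Like MIRLET7F2, MIRLET7A2 and MIRLET7F1 were below the 25th percentile of all probe sets on both arrays. The 9 measured genes whose hairpin holds GGAG had a median difference of -0.03, and the pair without it, MIRLET7A3 and MIR98, had -0.09 and 0.00. MIR4458 and MIR4500, which share the seed but are not on the family list, had differences of 0.00 and 0.09.

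Differences varied among genes of the same locus, but many of these genes had low levels. MIRLET7F1, MIRLET7F2, MIRLET7A2, MIR100, MIR125B1 and MIR125A were below the 25th percentile of all probe sets on both arrays. With that percentile of each array as a floor, each of them had a difference of -0.01, which is the difference between the floors. On chromosome 9, MIRLET7A1, MIRLET7F1 and MIRLET7D lie within MIRLET7A1HG, and MIRLET7D was lower while the levels of the other two were 0.08 and 0.16 above the control. On chromosome X, MIRLET7F2 and MIR98 lie within HUWE1 and had differences of -0.30 and 0.00. On chromosome 21 the long noncoding host gene MIR99AHG was lower, with 5.39 with linc00467 siRNA and 5.66 with control siRNA. Its difference of -0.28 stood beside that of MIRLET7C, but the other 2 microRNA genes of this cluster, MIR99A and MIR125B2, had 0.01 and 0.00. On chromosome 19, MIRLET7E lies between MIR99B and MIR125A, which had differences of -0.11 and 0.14. On chromosome 11, MIR100 and MIR125B1, the neighbours of MIRLET7A2, had 0.00 and -0.16. The host gene of MIRLET7A2, MIR100HG, had equal values of 3.63, and WDR82, the host gene of MIRLET7G, had a difference of 0.07. It was not tested whether a microRNA gene's probe set detected the mature microRNA, its precursor or the host transcript. The RNA was extracted with a column kit of a type that retains few short RNAs, so that mature microRNAs and their hairpins may both have been largely lost.

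**Figure D3:**
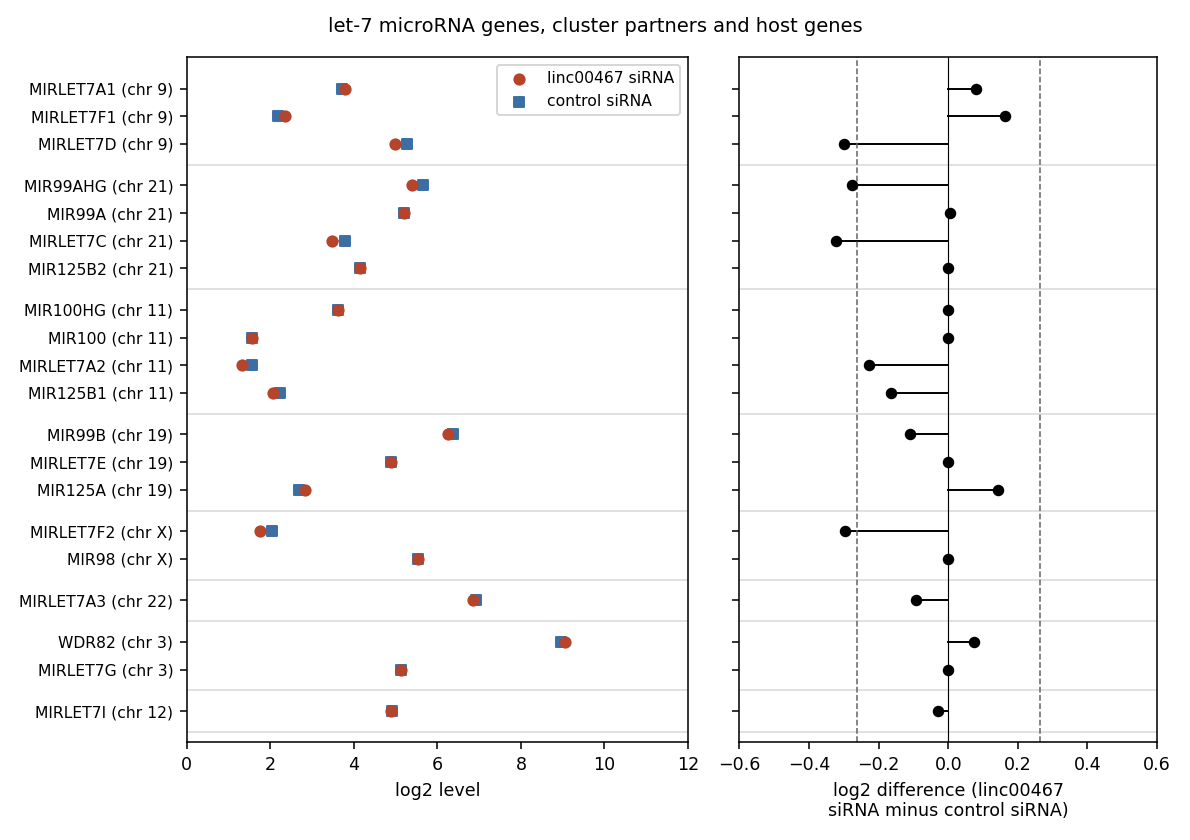
Left, log2 levels with linc00467 siRNA (red circles) and control siRNA (blue squares) of let-7 genes, of the microRNA genes that share their clusters and of host genes, grouped by locus. Right, the log2 difference of each, with dashed lines at 1.2 fold. MIRLET7D, MIR99AHG, MIRLET7C and MIRLET7F2 lie past the lower line and none lies past the upper line.

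Proteins that work with LIN28 on let-7 precursors or otherwise regulate let-7 processing had 7 measured members out of 11, of which 3 were below the control by at least 1.2 fold and 0 above it. All 7 were above the median level, where 13.4% of named probe sets were below the control by that fold and 10.7% above it. TRIM25, an RNA-binding ubiquitin ligase that promotes uridylation of pre-let-7, had a level of 8.59 with linc00467 siRNA and 9.15 with control siRNA. This was a log2 difference of -0.56, and 2.27% of named probe sets had a difference at least as low. HNRNPA1, which binds the let-7a-1 precursor and hinders its processing, had 7.83 with linc00467 siRNA and 8.37 with control siRNA, a difference of -0.54. HNRNPA1 has many near-identical processed pseudogenes, so that its probe set may also bind other RNAs. SETD7, a lysine methyltransferase that acts on LIN28A, had 7.49 with linc00467 siRNA and 7.84 with control siRNA, a difference of -0.34. The helicase gene DHX9 and the precursor-binding protein gene KHSRP, which promotes let-7 maturation, had 0.04 and 0.18. MSI1, an RNA-binding protein gene of neural progenitors, had -0.03, and DIS3L2, the nuclease that degrades uridylated pre-let-7, had -0.15. The uridylyltransferase genes TUT4 and TUT7 had no named probe set. The median of the 7 genes was -0.15.

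Of 6 measured genes for microRNA processing, 1 was lower by at least 1.2 fold, or 16.7%, near the 13.4% of named probe sets not below the median level, where all 6 lay. It was DDX5, a helicase of the nuclear processing complex, with 10.35 with linc00467 siRNA and 10.72 with control siRNA, a log2 difference of -0.37. Its paralogue DDX17 had a difference of 0.16. DGCR8, the RNA-binding partner of DROSHA, had -0.10, while the export receptor gene XPO5, the DICER1 partner gene TARBP2 and SRRT, which links the processing complex to capped RNA, had equal values on both arrays.
Of the effector proteins only the TNRC6 (GW182) genes had named probe sets, which encode the scaffold that links Argonaute to mRNA deadenylation. TNRC6C had a level of 9.43 with linc00467 siRNA and 8.84 with control siRNA, a log2 difference of 0.59. TNRC6A had 9.69 with linc00467 siRNA and 9.15 with control siRNA, a difference of 0.54. Of all named probe sets 1.03% had a difference at least as high as TNRC6C, and 1.42% at least as high as TNRC6A. TNRC6B, the third paralogue, had a difference of -0.03. The AGO1, AGO2, AGO3 and AGO4 genes were not named.

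Known let-7 targets other than the listed genes had no member past 1.2 fold upward. Of 17 probe sets of 15 measured genes, 0 were higher, beside 8.5% of all named probe sets. The 2 lower ones were 11.8%, close to the 9.78% of all named probe sets. Of the 17, 13 were at or above the median level, where 10.7% of named probe sets were higher and 13.4% lower. With so few probe sets, a count of 0 is not read as a trait of let-7 targets. IRS2, an adaptor of insulin and IGF receptors, had a level of 5.84 with linc00467 siRNA and 6.45 with control siRNA, a log2 difference of -0.61. CDK6, a G1 cyclin-dependent kinase, had 10.46 with linc00467 siRNA and 10.90 with control siRNA, a difference of -0.44. The other 13 genes lay between -0.22 for CDC34 and 0.16 for CCND1, the cyclin D1 gene. HMGA1 had 0.02 and 0.08 at its 2 probe sets, MYC had 0.09 at a level below the median, and CDC25A had -0.08. The median of the 17 probe sets was 0.00. MYCN was not named.

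Of 6 measured mRNAs that IGF2BP proteins are known to bind, 1 was higher, or 16.7%, beside 8.5% of all named probe sets. This was BTRC, which encodes a ubiquitin ligase subunit that targets beta-catenin, with 8.89 with linc00467 siRNA and 8.40 with control siRNA, a log2 difference of 0.49. The tau gene MAPT had -0.24, and the adhesion receptor gene CD44 and the kinase gene MAPK4 had equal values at levels below the median. Of 5 genes linked to LIN28B in neuroblastoma only 2 were measured, both above the median level, and 1 was higher. Of named probe sets not below the median level, 10.7% were higher. The 1 higher gene was RANBP2, a nuclear pore gene, with 8.59 with linc00467 siRNA and 8.23 with control siRNA, a difference of 0.35. The mitotic kinase gene AURKA had -0.15. RAN was not named.

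Across the 54 probe sets of these pathway lists without the 6 listed genes, 4 were higher and 10 were lower, or 7.41% and 18.5%. All named probe sets gave 8.5% and 9.78%. Those not below the median level, where 35 of the 54 lay, gave 10.7% and 13.4%. Named probe sets of microRNA genes, of which the 54 held 11, gave 9.14% and 15.8%. The median of the 54 was 0.00, as it was for all named probe sets, and 13 had equal values on both arrays. Of the 10 lower ones, 4 were below the median level, namely those of MIRLET7C, MIRLET7D, MIRLET7F2 and the host gene MIR99AHG. The higher ones were TNRC6A, TNRC6C, BTRC and RANBP2, and all had smaller differences than LIN28B.

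**Figure D4:**
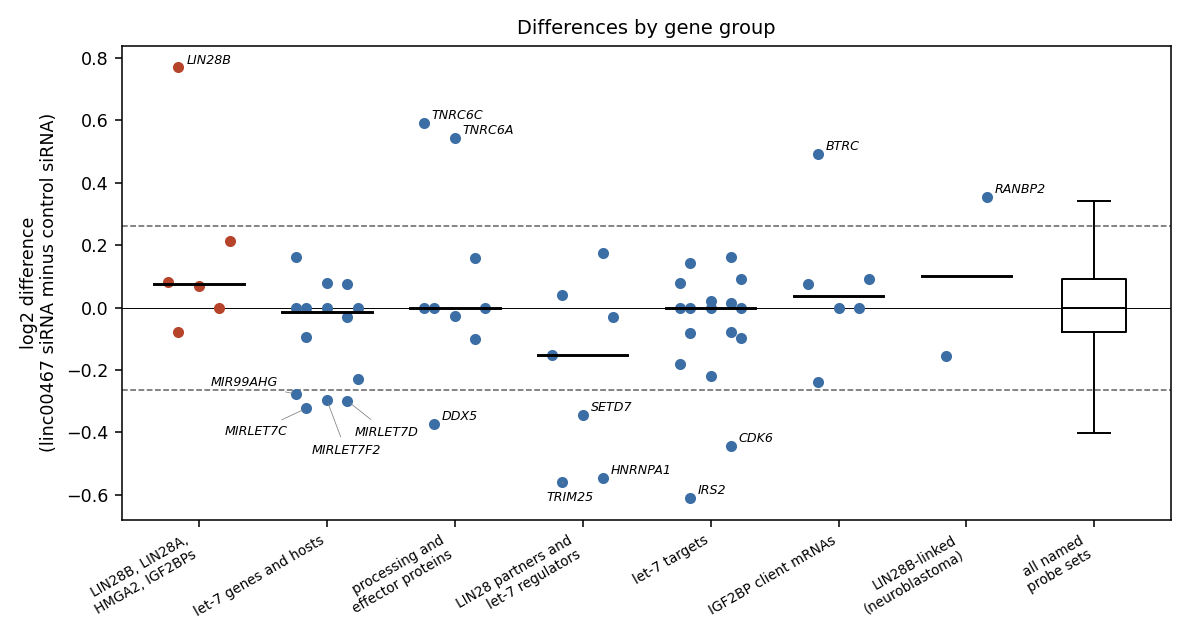
Each point is the log2 difference between linc00467 siRNA and control siRNA of 1 probe set, for the 6 listed genes (red) and the pathway lists (blue), with the median of each as a bar and dashed lines at 1.2 fold. The box on the right gives the 25th to 75th percentile of all named probe sets, with whiskers to the 5th and 95th percentiles at -0.40 and 0.34. LIN28B, TNRC6A, TNRC6C, BTRC and RANBP2 lie above the upper whisker, and TRIM25, HNRNPA1, CDK6 and IRS2 lie below the lower one.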

How the data were processed

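Total RNA was labelled with biotin and hybridized to Affymetrix HuGene-2_0-st arrays, 1 for linc00467 siRNA and 1 for control siRNA. The authors deposited log2 levels per probe set. Bioconductor in R is named in the methods and MAS5 in the submitters' processing notes. For the normalization, the versions and the genome build, the entry is not given in the sources used here. Scanner values were not analysed. Probe sets were named from the platform annotation, which gave 1 symbol for 16098 and none for 37519, and chromosomes from RefSeq by gene number. Differences were taken from the values as deposited. Calls used 1.2 fold. Arrays have no depth count, and their number limits the precision.

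The members and lists were chosen with earlier results of these data known. Named genes were the members, the targeted RNA, list genes past 1.2 fold, any let-7, processing or LIN28 partner gene, and the 3 probe sets closest to LIN28B. Others named, among them the microRNA genes sharing let-7 clusters, the seed-sharing MIR4458 and MIR4500 and list genes within 1.2 fold, were chosen after their values were seen, as were the markers that are printed. The alternatives were median centring, quantile normalization, lowess with a fraction of 0.2, a floor at the 25th percentile of each array, folds of 1.5 and 1.8, 1 value a gene, levels at or above the median, all probe sets as background and, added after seeing the data, leaving out equal values. Median centring, quantile normalization and lowess were tested on simulated data with added differences, a constant shift and no exact ties between arrays. The calls, lists and sequence steps were not tested in this way. Python 3.11.15, numpy 2.4.6, pandas 2.3.3, statsmodels 0.14.6 and matplotlib 3.10.9 were used.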

Additional observations from a re-analysis of the deposited data

How the results depend on the processing

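The difference of LIN28B stayed between 0.75 and 0.77 under median centring, quantile normalization, the lowess correction and the floor, and LIN28B remained past 1.5 fold. Median centring could not change any difference, because the median difference of named probe sets was already 0. The floor could change only levels below it, and those of LIN28B and IGF2BP1 were above it. For these genes only quantile normalization and the lowess correction could give a new value. LIN28B had 0.77 after quantile normalization and 0.75 after the lowess correction. At 1.8 fold 0 of the 6 genes were higher. IGF2BP1 stayed between 0.19 and 0.22, and no other listed gene passed 1.2 fold under these 4 alternatives. Of 296 recomputed differences of other named genes, 294 kept their side of 1.2 fold. The exceptions were both of MIRLET7F2, with -0.26 after quantile normalization and -0.01 with the floor. Those kept under median centring, and under the floor for genes with levels above it, repeat the main values and are no separate check. Restricting the lists to levels at or above the median left 6 of the 10 lower pathway probe sets and 0 of the 4 lower let-7 and host genes. At 1.5 fold 1 higher probe set, TNRC6C, and 1 lower one, IRS2, remained of the pathway lists, and 0 of either at 1.8 fold. With all probe sets as background, 0.664% had a difference at least as high as LIN28B. Leaving out probe sets with equal values could not change a count of calls, since equal values never pass 1.2 fold. No paired analysis was possible because each condition had 1 array. The number of arrays limits the precision of all values, and how the background was treated is unknown.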
